A study of Mus musculus with 12 samples.

Results

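Cell proliferation genes were examined as a set of 10 genes, *Mki67*, *Top2a*, *Cdk1*, *Ccna2*, *Ccnb1*, *Birc5*, *Aurkb*, *Mcm5*, *Mcm6* and *Rrm2*, which were picked by symbol from the 52459 genes listed in each count table. All 10 were found. A dividing cell first licenses and copies its DNA, which calls for the MCM helicase and a supply of deoxynucleotides, and then condenses, aligns and separates its chromosomes under the control of cyclins and their kinases. In the adult brain nearly all neurons have left the cell cycle, and division is retained by the progenitors of a few niches, by oligodendrocyte precursors and, at a low rate, by other glia such as microglia. RNA of these genes is therefore widely used as a readout of dividing cells in a tissue.

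RNA was sequenced from the cerebellum (Cb) and the forebrain/midbrain (F/M) of male mice of 4 months of age. T libraries came from *Tpp1*-/- homozygotes and N libraries from wild-type (WT) siblings of the same line, which was kept by crossing heterozygotes. *Tpp1* encodes the lysosomal protease tripeptidyl peptidase 1, and the targeted disruption of the gene is not described as limited to any cell type. The 4 groups were Cb-N, Cb-T, F/M-N and F/M-T with 3 libraries each, 12 in all, which the study describes as 3 mice of each genotype. Whether a Cb and an F/M library of the same number came from the same mouse is not stated.

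Libraries held 21428379 to 24458189 counts assigned to genes, so that 3 counts, taken as the smallest detectable level, stood for 0.123 to 0.140 CPM (counts scaled to the library size). *Tpp1*, the targeted gene, fell from 2423 to 2522 counts (Cb-N) to 663 to 771 (Cb-T) and from 1970 to 2174 (F/M-N) to 526 to 546 (F/M-T), log2 fold changes of -1.91 and -1.94. The labelled areas differed between genotypes in region markers: 15 *Hox* genes of hindbrain and spinal cord summed to 0.371 to 0.596 (Cb-N) against 14.3 to 14.9 CPM (Cb-T), and 7 olfactory bulb genes summed to 43.1 to 44.7 (F/M-N) against 16.4 to 18.1 CPM (F/M-T). All 3 libraries of each group behaved alike in these sums, so no library could be left out to remove the difference, and its part in the results below was not tested.

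The proliferation genes were scarce, with summed counts of all 10 between 516 and 720 per library. Below, CPM values are scaled by the TMM method over the 12 libraries and given as mean ± SD of 3 libraries. In 13 of the 40 combinations of gene and group, the coefficient of variation between replicates exceeded the one that counting alone gives. Its median was 13.8% against 16.8% from counting, so the spread of most genes was of the size that counting gives. For differences between T and N, the raw counts went into the quasi-likelihood test of edgeR, with Benjamini-Hochberg adjustment over all genes tested. Differentially expressed genes (DEG) had to pass an adjusted p of 0.1 and to change by 1.5-fold or more, which is 0.585 on the log2 scale. Genes with too few counts in the compared libraries were not tested. In whole tissue, fewer cells of a type and less RNA per cell cannot be told apart.

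Promoters of cell cycle genes often hold a CCAAT box, bound by NF-Y, a cell cycle genes homology region (CHR), bound by the DREAM and MuvB complexes, and sites for E2F factors. Promoter windows from 250 bases before to 50 bases after the RefSeq start (GRCm38.p6) were found for 8 of the 10 genes, all but *Ccna2* and *Aurkb*. The 250 bases before the start are printed 5′ to 3′ for 5 genes: *Mki67*, *Top2a* and *Cdk1*, which were higher in Cb-T, and the helicase subunits *Mcm6*, which rose by a smaller amount, and *Mcm5*, which did not pass the test. Capitals mark CCAAT (or ATTGG), the CHR as TTTGAA (or TTCAAA), its variant TTTAAA, and the E2F site as TTCCCGC (or GCGGGAA) or TTGGCGC (or GCGCCAA), each searched on both strands.
*Mki67* (chr7:135716380-135716629, - strand): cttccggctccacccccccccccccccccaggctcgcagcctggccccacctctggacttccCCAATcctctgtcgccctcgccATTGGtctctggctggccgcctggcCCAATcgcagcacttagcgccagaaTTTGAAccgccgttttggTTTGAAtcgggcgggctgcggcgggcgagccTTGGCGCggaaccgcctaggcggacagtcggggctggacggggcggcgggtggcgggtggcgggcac
*Top2a* (chr11:99024190-99024439, - strand): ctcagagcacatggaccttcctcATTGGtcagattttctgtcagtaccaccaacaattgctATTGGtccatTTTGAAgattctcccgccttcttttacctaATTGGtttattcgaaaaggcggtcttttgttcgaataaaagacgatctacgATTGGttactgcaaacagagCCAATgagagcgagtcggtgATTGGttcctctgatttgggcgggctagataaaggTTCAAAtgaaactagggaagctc
*Cdk1* (chr10:69352913-69353162, - strand): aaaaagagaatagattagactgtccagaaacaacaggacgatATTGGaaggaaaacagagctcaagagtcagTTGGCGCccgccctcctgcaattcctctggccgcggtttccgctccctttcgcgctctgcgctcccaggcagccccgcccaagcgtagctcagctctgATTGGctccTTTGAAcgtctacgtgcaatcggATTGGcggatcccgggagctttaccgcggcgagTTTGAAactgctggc
*Mcm6* (chr1:128359706-128359955, - strand): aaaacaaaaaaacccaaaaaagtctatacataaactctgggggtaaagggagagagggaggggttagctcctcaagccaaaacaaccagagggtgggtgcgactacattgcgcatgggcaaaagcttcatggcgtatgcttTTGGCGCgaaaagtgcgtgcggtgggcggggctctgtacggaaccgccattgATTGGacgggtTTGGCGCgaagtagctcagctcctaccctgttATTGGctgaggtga
*Mcm5* (chr8:75109259-75109508, + strand): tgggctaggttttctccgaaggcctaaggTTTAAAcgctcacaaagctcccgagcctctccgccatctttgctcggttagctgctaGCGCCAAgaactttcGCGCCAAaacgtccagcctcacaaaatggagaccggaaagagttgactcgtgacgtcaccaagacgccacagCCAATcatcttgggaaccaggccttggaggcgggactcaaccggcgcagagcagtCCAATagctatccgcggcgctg

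Within the whole window CCAAT was present in 7 of the 8 promoters, all but that of *Birc5*, and in 37.4% of the 32851 windows of the same length over the genome. TTTGAA was present in 3 of the 8, those of *Mki67*, *Top2a* and *Cdk1*, and in 17.9% of all windows. Each of these 3 promoters held it at 2 places, and the nearest to the start lay 98 bases before it in *Mki67*, 23 bases before it in *Top2a* and 15 bases before it in *Cdk1*. TTTAAA was present in *Mcm5*, *Birc5*, *Rrm2* and *Ccnb1* and in 13.2% of all windows. TTGGCGC was present in 5 of the 8, those of *Mcm5*, *Mcm6*, *Mki67*, *Cdk1* and *Ccnb1*, and in 2.45% of all windows, and in *Ccnb1* it overlapped a CCAAT match. TTCCCGC was found in 0 of the 8 and in 4.6% of all windows, and the TATA box, searched as TATAAA (or TTTATA), in 0 of the 8 and in 13.6% of all windows. These matches are descriptions of the letters, and binding was not measured.

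The first comparison asked which proliferation genes differed between *Tpp1*-/- and control cerebellum. *Mki67*, *Top2a* and *Cdk1* were DEG, 1.80- to 2.65-fold higher in Cb-T, and *Mcm6* rose by a smaller amount that passed the test but not the fold limit. Of the 10 genes, 7 were tested: 3 were DEG and higher, where 8.54% of all 16382 tested genes were higher DEG and 11.2% DEG in either direction, and 0 were lower, where 2.66% of all were. DESeq2 called 2 and limma-voom 3 of them, all higher, where they called 1614 and 1855 of all 16382 genes. In edgeR 4 of the 7 had an unadjusted p below 0.05. The share of all tested genes at that limit was not counted, so such counts, here and below, are descriptions. At an adjusted p below 0.1 and any fold, 9442 of 16382 genes passed in Cb and 4541 of 16665 in F/M. Without regard to the fold, 4 of the 7 were higher at an adjusted p below 0.1, as were 29.8% of all tested genes. In 4 of the 7 genes every Cb-T library lay above every Cb-N library, where 29.3% of all tested genes did so. The median log2 fold change was 0.40 over the 7 genes and 0.01 over all tested genes. Since a gene can pass the filter on counts through its T libraries alone, as *Cdk1* did, the count and the median over tested members are descriptions.

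**Figure D1:**
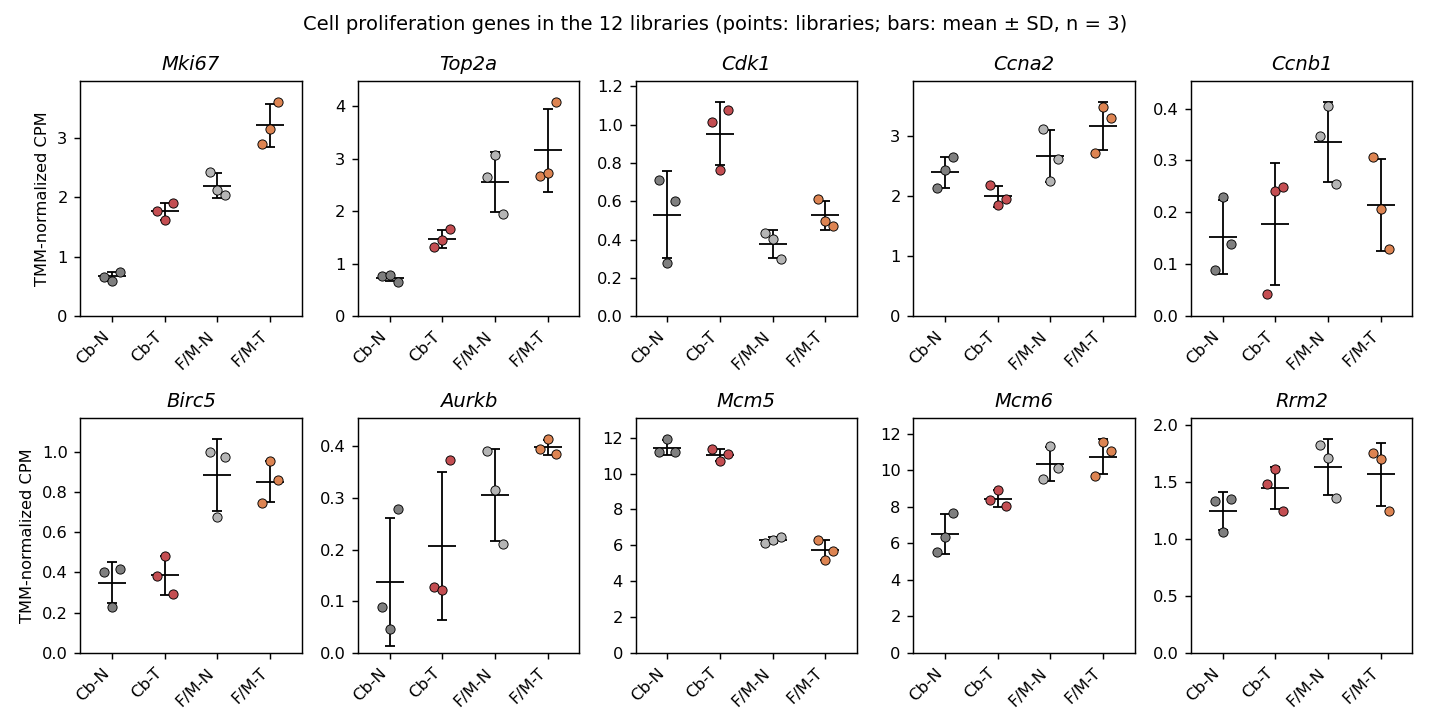
TMM-normalized CPM of the 10 cell proliferation genes in the 12 libraries, 1 panel per gene with its own linear axis from 0. Points are single libraries (n = 3 per group) and bars are mean ± SD; in *Mki67*, *Top2a*, *Cdk1* and *Mcm6* the 3 Cb-T points lie above the 3 Cb-N points, and *Mcm5* is higher in Cb than in F/M.

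*Mki67* encodes Ki-67, a protein that coats mitotic chromosomes and marks cells in cycle. It had 15, 13 and 16 counts in Cb-N and 42, 40 and 46 in Cb-T. The groups did not overlap, with means of 0.668 ± 0.0731 and 1.76 ± 0.148 CPM. The log2 fold change was 1.41 (SE 0.25, 95% interval 0.90 to 1.91, edgeR adjusted p = 7.61e-06). *Mki67* lies on chromosome 7 of GRCm38, bases 135689784 to 135716361, minus strand, on the same chromosome as *Tpp1* and 29.9 Mb from it.

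*Top2a* encodes topoisomerase II alpha, which untangles replicated DNA before chromosomes separate (chromosome 11, 98992943 to 99024189, minus strand). It had 17, 17 and 14 counts in Cb-N and 31, 36 and 40 in Cb-T. The groups again stood apart, at 0.728 ± 0.069 CPM and 1.47 ± 0.176 CPM. The log2 fold change was 1.02 (SE 0.26, 95% interval 0.50 to 1.54, edgeR adjusted p = 0.000868).

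*Cdk1* encodes the kinase that drives entry into mitosis (chromosome 10, 69335146 to 69352938, minus strand). It had 16, 6 and 13 counts in Cb-N and 24, 19 and 26 in Cb-T. The second Cb-N library was far below the other two, yet all Cb-T libraries exceeded all Cb-N libraries, with means of 0.530 ± 0.227 and 0.952 ± 0.165 CPM. The log2 fold change was 0.85 (SE 0.32, 95% interval 0.19 to 1.498, edgeR adjusted p = 0.0263). Without that Cb-N library it was 0.53 with an edgeR adjusted p of 0.205, and DESeq2 gave 0.85 with an adjusted p of 0.104, so the call rested on 1 library and on the test used.

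The set also holds cyclins that bind this kinase. *Ccna2*, cyclin A2, which acts in DNA synthesis and early mitosis, had 48, 53 and 57 counts in Cb-N and 52, 46 and 47 in Cb-T, overlapping groups of 2.40 ± 0.259 and 2.00 ± 0.176 CPM. Its log2 fold change was -0.25 (95% interval -0.61 to 0.11, edgeR adjusted p = 0.247). Of its exon bases 12.5% are shared with *Exosc9* on the opposite strand, a gene with 586 to 828 counts per library, and the strand setting of the read counting is not given in the sources used here, so part of the *Ccna2* counts may belong to *Exosc9*. *Ccnb1*, cyclin B1, the mitotic partner of Cdk1, had 2, 5 and 3 counts in Cb-N and 1, 6 and 6 in Cb-T and was too low to test. A two-sided exact permutation test on CPM gave p = 0.8, where the smallest p that 3 against 3 libraries allow is 0.1. In addition, 23.4% of the 50-base words of *Ccnb1* occur in other genes, among them the pseudogene *Ccnb1-ps*, which makes its counts uncertain.

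*Birc5* and *Aurkb* encode survivin and Aurora kinase B, both parts of the chromosomal passenger complex, which corrects the attachment of chromosomes to the spindle. *Birc5* had 9, 5 and 9 counts in Cb-N and 9, 12 and 7 in Cb-T, and *Aurkb* had 2, 1 and 6 counts in Cb-N and 3, 3 and 9 in Cb-T. In both genes the groups overlapped and the counts were too low for the test. Exact permutation tests gave p = 0.7 for *Birc5* and p = 0.5 for *Aurkb*. Fitted without the filter, their log2 fold changes had 95% intervals of -0.74 to 1.05 and -0.79 to 1.96, which do not leave out a 2-fold increase.

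The helicase subunits, expressed at the highest levels of the set, behaved differently from each other. *Mcm6* (chromosome 1, 128331590 to 128359664, minus strand) had 124, 138 and 165 counts in Cb-N and 198, 222 and 194 in Cb-T. All Cb-T libraries were higher, at 6.50 ± 1.09 CPM against 8.45 ± 0.457 CPM, a log2 fold change of 0.40 (SE 0.11, 95% interval 0.18 to 0.61, edgeR adjusted p = 0.00168) that stayed under the fold limit. *Mcm5* (chromosome 8, 75109569 to 75128439, plus strand) had 253, 260 and 241 counts in Cb-N and 269, 265 and 268 in Cb-T. After scaling the groups overlapped, at 11.4 ± 0.416 CPM and 11.1 ± 0.343 CPM, and the 95% interval of the log2 fold change, -0.20 to 0.12, left out a 1.5-fold change in either direction (estimate -0.04, edgeR adjusted p = 0.721).

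*Rrm2* encodes the small subunit of ribonucleotide reductase, which makes deoxynucleotides for DNA synthesis. It had 30, 23 and 29 counts in Cb-N and 35, 40 and 30 in Cb-T, overlapping groups of 1.24 ± 0.164 CPM and 1.44 ± 0.186 CPM. The log2 fold change of 0.23 (95% interval -0.23 to 0.69) did not pass the test (edgeR adjusted p = 0.423).

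**Figure D2:**
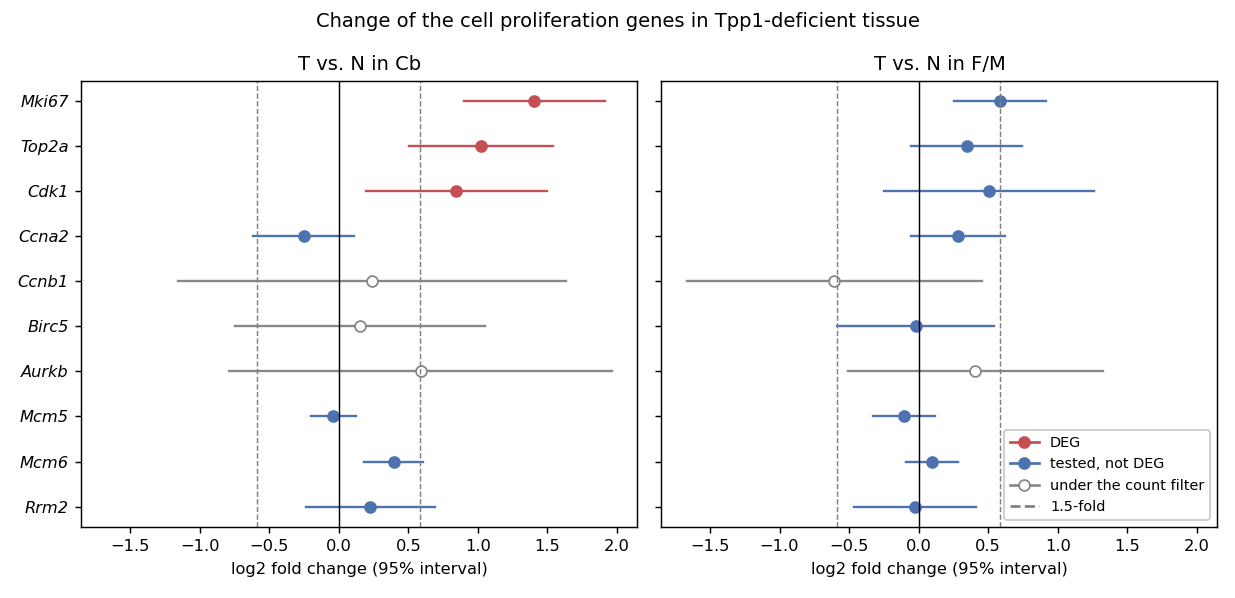
Log2 fold change of T vs. N with its 95% interval for each of the 10 genes in Cb (left) and F/M (right). Red points are DEG, blue points were tested and were not DEG, open grey points had too few counts and come from the fit without the count filter, and dashed lines mark a 1.5-fold change; *Mki67*, *Top2a* and *Cdk1* are DEG in Cb at 1.41, 1.02 and 0.85, and none of the 10 is a DEG in F/M.

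In F/M, none of the 10 genes was a DEG. *Mki67* passed the test but fell just under the fold limit, and the other tested genes did not pass the test. Of the 10 genes, 8 were tested and 0 were DEG by edgeR, by DESeq2 and by limma-voom, where 3.49% of all 16665 tested genes were DEG by edgeR. Only *Mki67* had an unadjusted p below 0.05, and it alone was higher at an adjusted p below 0.1, as were 12.8% of all tested genes. In *Mki67* and *Cdk1* all F/M-T libraries lay above all F/M-N libraries, as in 17.7% of all tested genes. The median log2 fold change was 0.19 over the 8 genes and 0.01 over all tested genes.

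*Mki67* had 56, 47 and 48 counts in F/M-N and 66, 76 and 84 in F/M-T. Every F/M-T library exceeded every F/M-N library, with means of 2.19 ± 0.210 and 3.21 ± 0.358 CPM. The log2 fold change was 0.58 (SE 0.16, 95% interval 0.25 to 0.92, edgeR adjusted p = 0.0128), a 1.498-fold change beside the limit of 1.5. It was a DEG when any of 3 libraries was left out, at 0.66 without F/M-N replicate 1, 0.65 without F/M-T replicate 1 and 0.60 without F/M-T replicate 2.

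*Top2a* had 61, 68 and 46 counts in F/M-N and 61, 66 and 95 in F/M-T. The third F/M-T library was the highest, and the other two lay among the controls. The log2 fold change was 0.34 (95% interval -0.06 to 0.74, edgeR adjusted p = 0.223). *Cdk1* had 10, 9 and 7 counts in F/M-N and 14, 12 and 11 in F/M-T, without overlap. Its log2 fold change of 0.51 had a wide interval at these counts, -0.25 to 1.26, and did not pass the test (edgeR adjusted p = 0.352).

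*Ccna2* had 72, 50 and 62 counts in F/M-N and 62, 84 and 77 in F/M-T, overlapping groups with a log2 fold change of 0.28 (edgeR adjusted p = 0.243). *Mcm6*, with 219 to 252 counts in F/M-N and 221 to 278 in F/M-T, had a log2 fold change of 0.09 (95% interval -0.09 to 0.28), and *Mcm5*, with 140 to 153 and 125 to 144 counts, one of -0.11 (95% interval -0.33 to 0.12). Both intervals lay within a 1.5-fold change. *Rrm2* (32 to 42 counts in F/M-N and 29 to 41 in F/M-T) and *Birc5* (15 to 23 and 17 to 23 counts) were both at -0.02 with overlapping groups. *Ccnb1* fell below the filter with 8, 9 and 6 counts in F/M-N and 7, 5 and 3 in F/M-T, and *Aurkb* with 9, 7 and 5 in F/M-N and 9, 10 and 9 in F/M-T, and an exact permutation test gave p = 0.2 for each.

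Whether the change of a gene differed between the areas was tested as the interaction of tissue and genotype over all 12 libraries, as the log2 fold change in Cb minus that in F/M. Of the 8 genes tested, 1 was called, where 7.61% of 17482 genes were, and it had the larger value in Cb, as 6.41% of all did. *Mki67* rose more in Cb, by 0.84 on the log2 scale (SE 0.28, 95% interval 0.26 to 1.42, edgeR adjusted p = 0.0307). The call was lost with DESeq2, which gave 0.82 and an adjusted p of 0.103. For *Top2a* the difference was 0.70 (95% interval 0.02 to 1.38, edgeR adjusted p = 0.139), and for *Ccna2*, with estimates of -0.25 in Cb and 0.28 in F/M, it was -0.51 (95% interval -0.99 to -0.03, edgeR adjusted p = 0.125). *Top2a* was called without F/M-N replicate 3 (0.87) or F/M-T replicate 3 (0.92), and *Ccna2* without F/M-N replicate 1 (-0.64), F/M-T replicate 1 (-0.61) or Cb-T replicate 1 (-0.63). For *Cdk1* the difference was 0.36 (95% interval -0.68 to 1.40), and for *Mcm6* 0.32 (95% interval 0.02 to 0.62), neither past the threshold (edgeR adjusted p = 0.681 and 0.119).

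The areas also differed in control mice. In control libraries *Mki67*, *Top2a*, *Mcm6* and *Birc5* were lower in Cb-N than in F/M-N and *Mcm5* was higher. Of the 7 genes tested, 5 were DEG, where 42% of 16725 genes were, 1 of them higher in Cb (19.2% of all) and 4 lower (22.8% of all). These counts are descriptions, since *Birc5* passed the filter on counts through F/M-N alone. The mean of *Mki67* was 0.668 CPM for Cb-N and 2.19 CPM for F/M-N, a log2 difference of -1.71 (SE 0.23, edgeR adjusted p = 8.65e-07), and *Top2a* at 0.728 and 2.55 CPM, a difference of -1.80 (SE 0.24, edgeR adjusted p = 7.95e-07). *Mcm5*, in contrast, was higher in Cb-N by 0.86 (SE 0.09, edgeR adjusted p = 2.54e-08). *Birc5*, with 5 to 9 counts in Cb-N and 15 to 23 in F/M-N, was at -1.33 (edgeR adjusted p = 0.00145). *Mcm6* was at -0.67 (edgeR adjusted p = 1.76e-05) and fell under the fold limit, to -0.56, without Cb-N replicate 1. *Rrm2* (-0.39) and *Ccna2* (-0.16) did not pass the test (edgeR adjusted p = 0.111 and 0.409). *Cdk1*, *Ccnb1* and *Aurkb* were too low to test, with exact permutation p values of 0.4, 0.1 and 0.2.

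In Cb-T, *Mki67* at 1.61 to 1.91 CPM still lay below all F/M-N libraries, at 2.03 to 2.43 CPM. *Top2a* did likewise, with 1.31 to 1.66 CPM in Cb-T and 1.95 to 3.06 CPM in F/M-N. The CPM of the 10 genes together were 22.9 to 25.7 in Cb-N, 27.8 to 28.0 in Cb-T, 26.3 to 28.6 in F/M-N and 28.1 to 30.8 in F/M-T. Without *Mcm5* and *Mcm6*, which made up most of this sum, they were 5.64 to 6.82 in Cb-N, 8.14 to 8.75 in Cb-T, 9.70 to 12.2 in F/M-N and 12.1 to 14.1 in F/M-T.

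**Figure D3:**
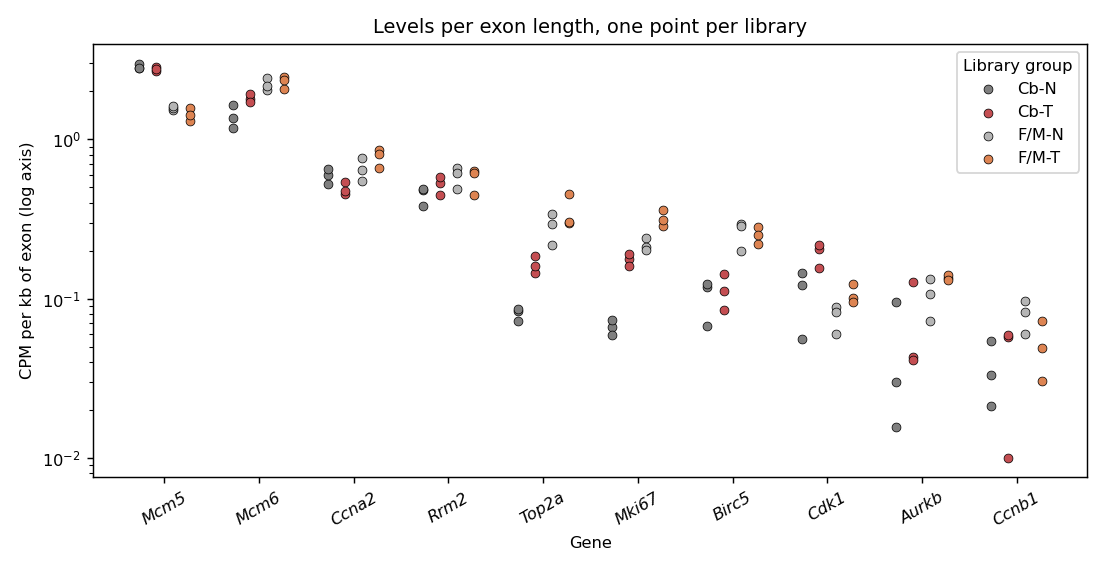
Level of each gene as TMM-normalized CPM per kilobase of annotated exon, on a log axis, with 1 point per library and genes ordered by their mean over the groups. *Mcm5* and *Mcm6* lie highest in all 4 groups, *Ccna2* and *Rrm2* follow, and the mitotic genes lie lowest.

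To compare levels between genes, CPM were divided by the length of the annotated exons in kilobases. On this scale *Mcm5* led in Cb-N at 2.87 ± 0.104 CPM per kb and *Mcm6* followed at 1.39 ± 0.233, while in F/M-N *Mcm6* led at 2.21 ± 0.201 and *Mcm5* followed at 1.58 ± 0.0452. *Ccna2* and *Rrm2* came next in both, at 0.588 and 0.449 in Cb-N, and at 0.653 and 0.588 in F/M-N, where the libraries of these 2 genes overlapped. In Cb-N the other 6 genes, *Cdk1*, *Birc5*, *Top2a*, *Mki67*, *Aurkb* and *Ccnb1*, lay between 0.107 and 0.0362, and each overlapped the next in the order. In Cb-T *Cdk1* (0.193), *Mki67* (0.175) and *Top2a* (0.163) overlapped in this order, and *Birc5* (0.113) lay below all *Top2a* libraries. In F/M-T *Top2a* (0.350) and *Mki67* (0.319) followed *Rrm2*, above *Birc5* (0.250), *Aurkb* (0.135), *Cdk1* (0.107) and *Ccnb1* (0.0508). Exon length counts every annotated exon, so isoforms shorter than this are understated.

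Other genes of the cell cycle were taken from 6 lists chosen by role. In Cb 10 of their 97 tested genes were DEG, or 10.3%, beside 11.2% of all tested genes, and in F/M 3 of 105, or 2.86%, beside 3.49%. The 10 DEG in Cb included 7 mitotic genes, and the median log2 fold changes of the lists ran from -0.18 to 0.12, beside 0.01 over all tested genes. Like the set of 10, these lists were chosen with earlier results of the data known. The MCM2-7 helicase has 6 subunits, and *Mcm3*, named here after its values were seen, was the nearest to *Mcm6* in its change in Cb, though not in F/M. Its counts were 53 to 83 for Cb-N against 107 to 126 for Cb-T, and its log2 fold change of 0.58 lay just under the fold limit (edgeR adjusted p = 0.000779). In F/M it was at 0.43 (edgeR adjusted p = 0.0319). *Mcm2*, *Mcm4* and *Mcm7* were at -0.06, -0.07 and 0.02 in Cb and at 0.04, 0.07 and 0.07 in F/M and did not pass the test. In the licensing and helicase list, 16 of 17 genes were tested and 0 were DEG in Cb by edgeR, with 3 at an unadjusted p below 0.05, 0 called by DESeq2 and 2 by limma-voom. The median log2 fold change was 0.12 in Cb and 0.05 in F/M, where again 0 of 16 were DEG by all of these tests and 1 had an unadjusted p below 0.05.

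Of 16 tested genes of DNA synthesis, 1 was a DEG in Cb, the histone chaperone subunit *Chaf1b*, which rose from 6 to 8 counts in Cb-N to 12 to 25 in Cb-T (log2 fold change 1.02, edgeR adjusted p = 0.0293) and passed the count filter through Cb-T alone. DESeq2 called 0 of this list (*Chaf1b*, adjusted p = 0.111), and without Cb-T replicate 1, the library with 25 counts, the edgeR value was 0.56 (adjusted p = 0.325), and without Cb-N replicate 1 it was 0.87 (adjusted p = 0.114). The list median was 0.05 in Cb and 0.10 in F/M, where 0 of 17 were DEG by edgeR, DESeq2 and limma-voom and 0 had an unadjusted p below 0.05.

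Among mitotic genes, 36 of the 48 listed were tested in Cb, and 5 rose and 2 fell, 19.4% of those tested beside 11.2% of all. *Bub1b*, a spindle checkpoint kinase, rose from 58 to 88 counts to 119 to 122 (log2 fold change 0.66, edgeR adjusted p = 0.000122). *Nusap1*, a microtubule-binding protein of the spindle, rose from 8 to 10 counts to 17 to 25 (1.06, adjusted p = 0.00782), and the condensin subunit *Ncaph* from 12 to 19 to 20 to 39 with an overlap of normalized libraries (0.85, adjusted p = 0.0109). *Cdca3*, which takes part in the entry into mitosis (0.94, adjusted p = 0.0211), and the spindle protein *Ckap2l* (0.65, adjusted p = 0.0571) were also higher. *Nusap1* and *Cdca3*, each at 8 to 10 counts in Cb-N, passed the count filter through the Cb-T libraries, so the shares of DEG in this list and over the 6 lists are descriptions. *Ckap2l* lost its call with DESeq2 (adjusted p = 0.17) and without Cb-N replicate 1 (adjusted p = 0.119), Cb-N replicate 2 (0.54, adjusted p = 0.196) or Cb-T replicate 1 (0.34, adjusted p = 0.408), and *Bub1b* fell under the fold limit without Cb-N replicate 1 (0.57) or Cb-N replicate 3 (0.54).

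The 2 mitotic genes that fell in Cb-T were *Nek2*, a kinase of centrosome separation, and *Ccnb2*, cyclin B2. *Nek2* went from 256 to 314 counts (Cb-N) to 191 to 194 (Cb-T; log2 fold change -0.68, edgeR adjusted p = 1.04e-08), and *Ccnb2* from 40 to 48 to 19 to 36 (-0.76, adjusted p = 0.00435), or -0.56 without Cb-T replicate 3. In control tissue both were higher in Cb than in F/M, *Nek2* by 3.21 and *Ccnb2* by 1.07 on the log2 scale (edgeR adjusted p = 4.83e-15 and 0.000331). So was *Bub1b* (1.26, edgeR adjusted p = 1.71e-05), which rose in Cb-T, whereas *Mki67* and *Top2a* were lower in Cb-N. The median over the mitotic list was 0.10 in Cb.

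In F/M 2 of 41 tested mitotic genes were DEG (4.88%, beside 3.49% of all), both higher. *Bub1b* rose from 26 to 38 counts in F/M-N to 59 to 87 in F/M-T (log2 fold change 1.22, edgeR adjusted p = 0.00016), and *Ncaph* from 24 to 28 to 42 to 44 (0.71, adjusted p = 0.0174). For neither was the change shown to differ from that in Cb (interaction -0.55 and 0.16, edgeR adjusted p = 0.128 and 0.801). *Nusap1* was at 0.62 in F/M and did not pass the test (edgeR adjusted p = 0.131).

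**Figure D4:**
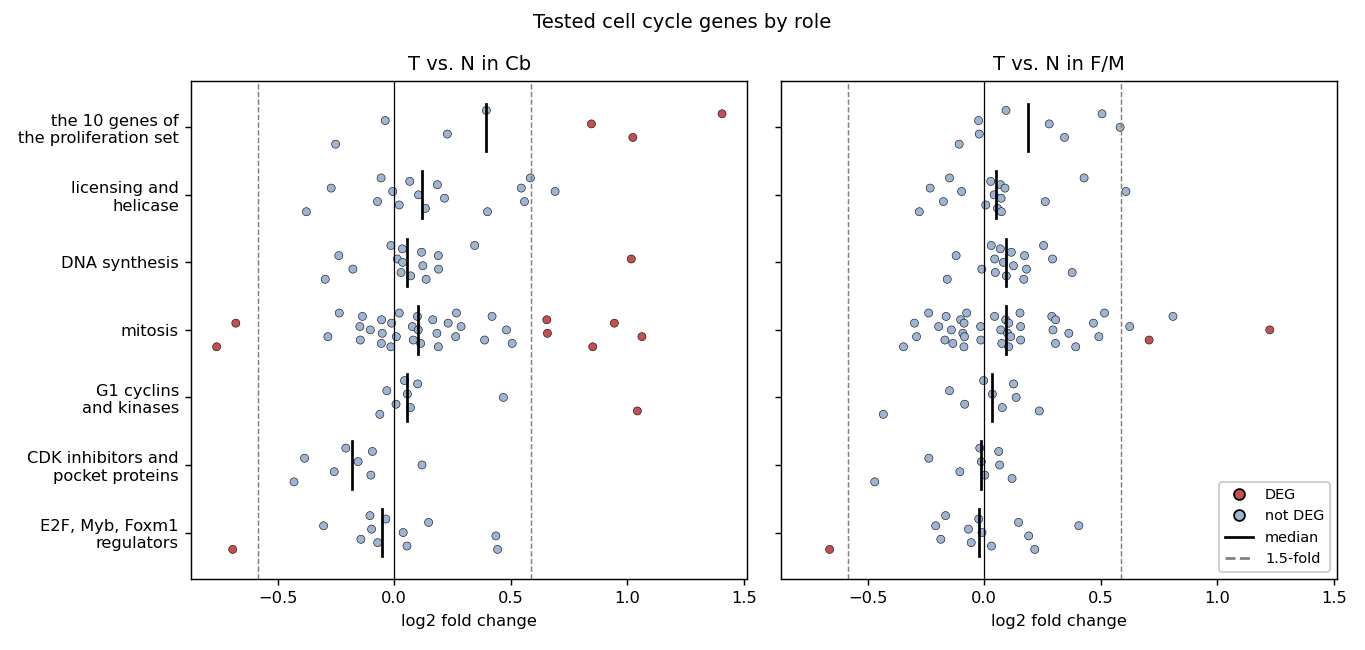
Log2 fold change of T vs. N in Cb (left) and F/M (right) for every tested gene of the proliferation set and of 6 cell cycle lists, 1 point per gene (red, DEG), with the median of each list as a black line and a 1.5-fold change as dashed lines. DEG of the mitosis list lie on both sides of 0 in Cb, and the medians of the 6 lists lie between -0.18 and 0.12 in Cb.

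Regulators of the cycle were taken as 3 lists, whose counts stand beside 11.2% (Cb) and 3.49% (F/M) DEG among all tested genes. With no fold limit, 3 of 9, 6 of 8 and 5 of 12 of their genes were called in Cb, in the order below. At that setting 9442 of all 16382 tested genes were called in Cb. Of 9 tested cyclins and kinases of the first growth phase, 1 was a DEG in Cb: *Cdk6*, a partner of the D-type cyclins, rose from 21 to 27 counts to 49 to 56 (log2 fold change 1.04, edgeR adjusted p = 5.85e-05). In F/M *Cdk6* was at 0.14 (edgeR adjusted p = 0.49), and 0 of the 9 were DEG by edgeR, DESeq2 and limma-voom, with 2 at an unadjusted p below 0.05. The list medians were 0.06 in Cb and 0.04 in F/M. The CDK inhibitors and pocket proteins, which hold cells out of the cycle, gave 0 DEG by all 3 tests among 8 genes in Cb (6 at an unadjusted p below 0.05, 5 of them lower) and 0 among 9 in F/M (2 at an unadjusted p below 0.05, both lower), with medians of -0.18 and -0.01. *Cdkn1a*, which encodes the inhibitor p21 and is named here after its values were seen, was below controls in both areas without reaching the fold limit, at -0.43 in Cb and -0.47 in F/M (edgeR adjusted p = 3.16e-06 and 0.000363). Of the E2F, Myb and Foxm1 regulators, 1 of 12 was a DEG in Cb, the repressor *E2f7* at -0.69 (edgeR adjusted p = 0.0258; -0.48 without Cb-T replicate 3), and 1 of 13 in F/M, *E2f2* at -0.66 (edgeR adjusted p = 0.0838). *E2f2* was not called by DESeq2 (adjusted p = 0.224), and it lost its call without F/M-N replicate 2 (-0.48) or without any 1 of the F/M-T libraries (-0.50 to -0.80). In this list 5 genes in Cb (3 of them lower) and 2 in F/M (both lower) had an unadjusted p below 0.05.

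Markers of cell types that can divide, or that the dissection can bring in, were measured in the same libraries, and their part in the changes of the proliferation genes was not tested. The 14 microglia markers, with *Csf1r*, *C1qa* and *C1qb* highest in T, summed to 141.7 to 150.9 (Cb-N) against 515 to 527 CPM (Cb-T), and to 442 to 455 (F/M-N) against 660.0 to 669 CPM (F/M-T). The median sums thus differed 3.67-fold in Cb and 1.48-fold in F/M, 11 and 7 of the 14 markers were DEG and higher, and 0 were DEG and lower. Among all tested genes, 8.54% were higher and 2.66% lower DEG in Cb, and 3.49% were DEG in either direction in F/M. The counts of DEG in the marker lists below stand beside the same shares. In F/M *P2ry12*, *Tmem119* and *Sall1*, named after their values were seen, did not pass the test, with log2 fold changes of -0.01, -0.06 and -0.05, and in Cb they were higher by 0.50, 0.31 and 0.58, under the fold limit (edgeR adjusted p = 2.52e-07, 0.0128 and 1.56e-08). In the means, *Mki67* differed 2.64-fold in Cb and 1.46-fold in F/M, *Top2a* 2.02- and 1.24-fold, and *Cdk1* 1.80- and 1.39-fold. Of the other genes tested in Cb, the means of *Ccna2*, *Mcm5*, *Rrm2* and *Mcm6* differed 0.832-, 0.965-, 1.16- and 1.3-fold there and 1.19-, 0.909-, 0.960- and 1.04-fold in F/M.

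The 12 markers of oligodendrocyte precursors, led by *Cspg5*, *Tnr* and *Olig1* in F/M and by *Tnr*, *Cspg5* and *Lhfpl3* in Cb, summed to 455 to 464 (Cb-N) against 493 to 510 CPM (Cb-T), with 2 of 12 DEG, both higher, beside 8.54% higher DEG among all tested genes. In Cb 10 of the 12 were higher at an adjusted p below 0.1 without regard to the fold, as were 29.8% of all tested genes, and 11 had an unadjusted p below 0.05, with a median log2 fold change of 0.34. *Tnr*, the largest term of the sum, was lower, at 171 (Cb-N) against 139 CPM (Cb-T). In F/M they summed to 901 to 916 CPM in N and 888 to 915 CPM in T, with 0 DEG by edgeR, DESeq2 and limma-voom and 3 at an unadjusted p below 0.05. The 13 markers of neuroblasts and neural progenitors, led by *Tubb3* in both areas and with *Dcx* next in F/M, summed to 335 to 342 (Cb-N) against 362 to 371 CPM (Cb-T), with 4 higher and 1 lower DEG among 11 tested, and *Dlx2* was at 0 in all Cb libraries. One of the higher genes, *Igfbpl1*, had 2 to 8 counts in Cb-N against 23 to 39 for Cb-T and passed the count filter through Cb-T alone, so the counts and the median of this list are a description. Without regard to the fold, 7 of the 11 were higher at an adjusted p below 0.1, beside the same 29.8%, with a median of 0.34, while *Eomes* was at 53.2 (Cb-N) against 11.4 CPM (Cb-T). In F/M they summed to 541 to 555 CPM in N and 511 to 528 CPM in T, with 1 DEG, which was lower. *Tubb3* alone made up most of the sums of this list, at 208.5 (Cb-N), 260.7 (Cb-T), 330.0 (F/M-N) and 330.5 CPM (F/M-T). The 5 markers of cerebellar granule precursors, led in Cb by *Gli1*, *Barhl1* and *Mycn*, summed to 33.8 to 37.1 (Cb-N) against 29.7 to 33.5 CPM (Cb-T), with 0 of 4 tested DEG by all 3 tests and 2 at an unadjusted p below 0.05, both lower. *Atoh1*, the defining gene of these precursors, was at 0 counts in all 12 libraries.

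The 10 astrocyte markers, led by *Slc1a2*, *Aldoc* and *Slc1a3*, had 1.29-fold higher median sums in Cb-T and 1.13-fold higher ones in F/M-T (2 and 1 of 10 DEG, all higher), the 10 endothelial markers, led by *Flt1*, *Slco1a4* and *Itm2a*, 1.12- and 1.07-fold (0 DEG by all 3 tests, 7 and 5 at an unadjusted p below 0.05), and the 5 erythroid markers, led by *Hbb-bs*, *Hba-a1* and *Hbb-bt*, 1.39- and 1.15-fold (1 and 0 DEG, all 5 at an unadjusted p below 0.05 in each area). The 10 lymphocyte markers, led by *Trac* in Cb and by *Cd4* in F/M, summed to only 2.69 to 2.89 (Cb-N) against 4.31 to 5.08 CPM (Cb-T), and to 8.56 to 10.2 (F/M-N) against 9.94 to 11.3 CPM (F/M-T), with 1 gene tested in Cb, which was higher, and 2 in F/M, 0 of them DEG by all 3 tests or at an unadjusted p below 0.05. Most of these sums was *Trac* in Cb, at 2.11 (Cb-N) against 3.20 CPM (Cb-T), and *Cd4* in F/M, at 7.87 (F/M-N) against 8.57 CPM (F/M-T). Of the 10, 6 had at most 3 counts in every library in Cb-N, and 6 in F/M-N, among them *Cd3e*, *Cd3g*, *Cd3d*, *Cd2* and *Cd8a* in both. In Cb-T 1 and in F/M-T 2 were that low. The 7 markers of monocytes and granulocytes, led by *S100a9*, *S100a8* and *Ccr2*, stayed below 4 CPM in sum in every library, and 0 were DEG in either area by edgeR, DESeq2 and limma-voom, with 0 at an unadjusted p below 0.05. The 7 markers of choroid plexus and ependyma, dominated by *Ttr*, with *Kl* next, had median sums 1.00-fold in Cb and 1.33-fold in F/M (1 and 0 DEG, with 5 in Cb, 4 of them higher, and 3 in F/M, all higher, at an unadjusted p below 0.05). In Cb *Ttr* was at 2108 (Cb-N) against 2051 CPM (Cb-T), while the ependymal genes *Foxj1* and *Ccdc153*, named after their values were seen, were higher in Cb-T by 0.45 and 0.79 on the log2 scale (edgeR adjusted p = 8.27e-06 and 1.17e-05), the second a DEG.

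Region markers moved with genotype too. The 15 *Hox* genes had 0 to 5 counts each in Cb-N. In Cb-T *Hoxb5*, *Hoxa5* and *Hoxb3* were highest, at 50 to 76, 37 to 63 and 39 to 47 counts. Of the 15, 10 were tested, all of which passed the count filter through Cb-T alone and were higher DEG, so their count is a description. The median sum was 29.2-fold higher in Cb-T. In F/M the sum was at most 0.0847 CPM in every library and none of the 15 was tested. The olfactory bulb genes *Cdhr1*, *Doc2g*, *Eomes* and 4 others gave 7 lower DEG of 7 in F/M. Of these, *Omp*, *S100a5* and *Tbx21* passed the count filter through F/M-N, where they were high, so the count is a description. The list had a median sum 0.385 times that of F/M-N. In Cb, where *Eomes* dominated the list, the sum was 56.5 to 59.4 CPM in N and 17.2 to 18.8 CPM in T, with 1 higher and 1 lower DEG among 4 tested. The higher one, *Cdhr1*, had 7 to 11 counts in Cb-N against 52 to 64 for Cb-T, the group through which it passed the filter.

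**Figure D5:**
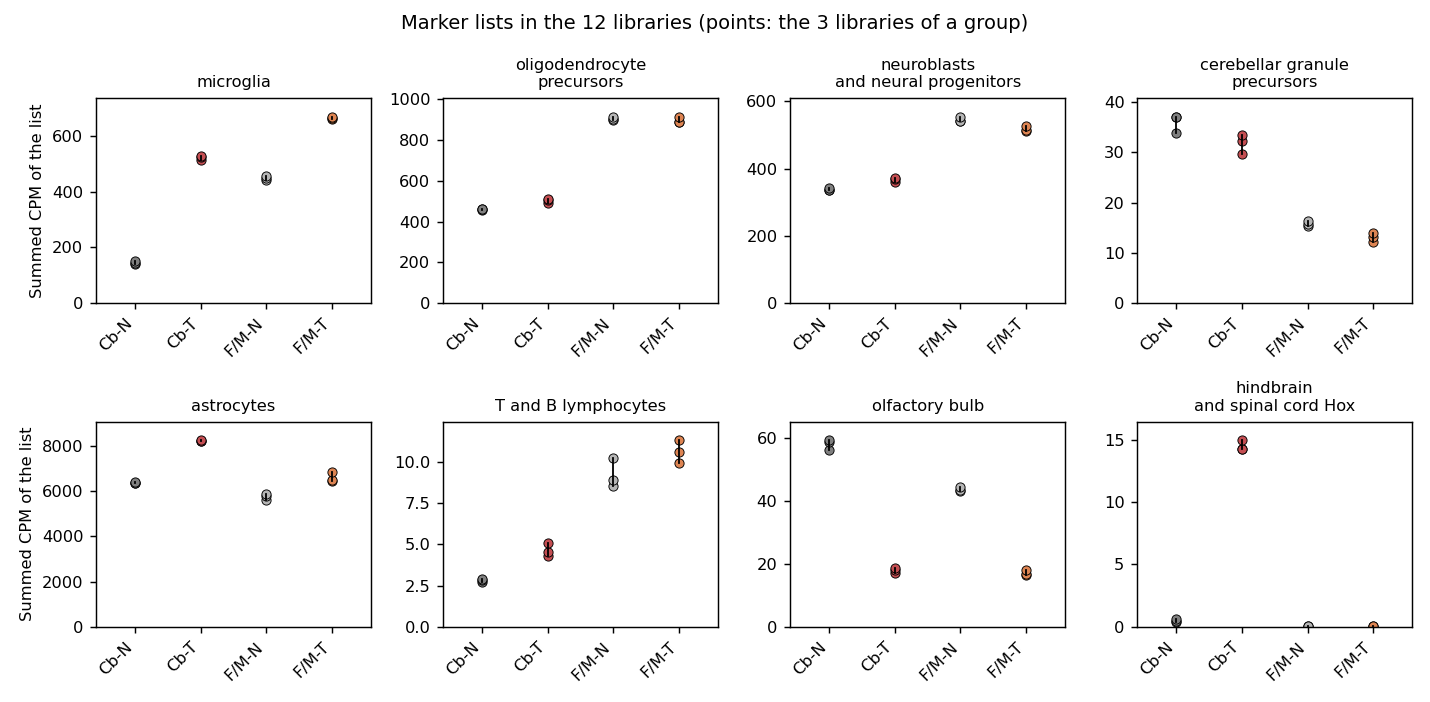
Summed TMM-normalized CPM of 8 marker lists in the 3 libraries of each group (points; black lines join the lowest and the highest), each panel with its own linear axis from 0. The microglia sum is higher in T in both areas, the *Hox* sum is above 14 CPM only in Cb-T, the olfactory bulb sum is lower in T, and the precursor and progenitor sums differ by less.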

How the data were processed

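Poly(A)-selected RNA of 12 libraries was sequenced as single-end reads. STAR was the aligner of the authors, with GRCm38 as genome, and featureCounts gave the raw counts per gene, which were deposited as 1 table per library with no scaling. How the counting treated strand, the handling of reads with several alignments and the annotation release are not given in the sources used here, and they decide how reads of overlapping or near-identical genes were assigned.

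All further steps used these counts and edgeR 4.0.16 (R 4.3.3), with DESeq2 1.42.0 and limma 3.58.1 as alternatives. For each comparison the libraries of its groups were fitted alone, and the interaction used all 12. Genes were kept by filterByExpr (minimum count 10, minimum total count 15), scaled by TMM and tested by glmQLFTest with Benjamini-Hochberg adjustment. The limits for DEG were those of the study, an FDR of 0.1 and a 1.5-fold change. The study kept only genes on which its methods overlapped, whereas DEG here rest on edgeR alone, so the sets can differ. SE and 95% intervals were taken from the quasi-likelihood F statistic. Genes below the filter were compared by two-sided exact permutation tests on CPM. The scripts were tested on simulated counts.

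Named are all 10 members, *Tpp1*, every DEG of the cell cycle lists in Cb or F/M, and the highest genes of the marker lists (3 by the rule, fewer where the groups of an area ranked them differently), with exceptions said in place. A marker gene was left out of its list and is not reported here. The members and lists were chosen with earlier results of these data known. Exon lengths and positions came from GENCODE vM21 on GRCm38, shared sequence from 50-base words of its transcripts, and promoters from RefSeq (GRCm38.p6). Replicate libraries of a group differed by more than sampling noise (chi-square per degree of freedom 1.27 to 3.37), so all 12 were kept. P values measure the spread between the libraries of a group, which the labels number and the study describes as 3 mice of each genotype. Total counts of 21428379 to 24458189 set the precision, and the floor of 3 counts covers counting error only.

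The alternatives were DESeq2, limma-voom, RLE size factors, no count filter, a mean count of at least 50, a single fit of the 12 libraries, the replicate block, FDR below 0.05, no fold limit, and leaving out each library. The authors' other quantification and their pathway analysis were not used here.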

Additional observations from a re-analysis of the deposited data

Results flagged for a closer look

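The test of the difference between the areas singled out 4 cell cycle genes, 1 of the 8 proliferation genes tested and 3 of the 106 tested genes of the other lists (2.83%), where 7.61% of all tested genes were called. Each is given with its value as the log2 fold change in Cb minus that in F/M and the edgeR adjusted p of the interaction. *Mki67* differed by 0.84 (adjusted p = 0.0307), since it was higher in T in both areas and more so in Cb, in 3 of 3 libraries against all 3 controls in each. *Cdk6* differed by 0.93 (adjusted p = 0.00406), with 49 to 56 counts in Cb-T against 21 to 27 in Cb-N and overlapping groups in F/M. *E2f2* differed by 1.47 (adjusted p = 0.024), with 5 to 9 counts in Cb-N, 10 to 16 in Cb-T, 24 to 36 in F/M-N and 15 to 22 in F/M-T, so that its counts were higher in T in Cb and lower in T in F/M. It was too low to be tested in Cb alone, entered this test through F/M, and its call in F/M was lost with DESeq2 and in 4 of 6 fits without 1 library. *E2f1*, named here after its values were seen, differed by 0.66 (adjusted p = 0.0296), with 0.44 in Cb and -0.21 in F/M, both under the fold limit (edgeR adjusted p = 0.0815 and 0.0945). Its call was lost without Cb-N replicate 3 (0.45, adjusted p = 0.156). With 3 libraries per group, single libraries were not examined for outliers.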

How the results depend on the processing

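The number of proliferation genes called in Cb was 3 and stayed at 2 to 4 in every alternative but 1: with a mean count of at least 50 it was 0, because *Mki67*, *Top2a* and *Cdk1* were no longer tested. Leaving out 1 library gave 2 to 3 in Cb. In F/M the count of 0 became 1 with no fold limit and ranged from 0 to 1 without single libraries. For the interaction, the count of 1 became 0 with DESeq2, 0 with a mean count of at least 50, which removed *Mki67* from the test, and 2 with the replicate block, and it ranged from 1 to 2 without single libraries. Between control areas the count of 5 became 2 with a mean count of at least 50 and ranged from 4 to 6 without single libraries.

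Same-numbered libraries of the compared groups did not deviate together (correlations -0.0157 to 0.0616), so the numbers were not taken as pairs. The replicate block added *Top2a* to the interaction (0.71, edgeR adjusted p = 0.0866) and changed no other call of a member. The sign turned only in uncalled values near 0, without single libraries: *Rrm2* in F/M ranged from -0.14 to 0.12, *Birc5* in F/M from -0.18 to 0.07 and *Birc5* in the interaction from -0.03 to 0.35.

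Calls in the cell cycle lists moved with the fold limit. With no limit, 3 of 16 licensing genes, 8 of 16 of DNA synthesis and 6 of 8 CDK inhibitors and pocket proteins were called in Cb, against 0, 1 and 0. Over all 16382 tested genes, 9442 were called in Cb with no limit, against 1835 with it. The licensing count of 0 in Cb, where *Mcm3* lay just under the fold limit, became 1 to 3 in 9 of 15 alternatives. In Cb, *Ccnb1*, *Birc5* and *Aurkb* had 1 to 12 counts per library and their 95% intervals did not leave out a 2-fold increase, so a missed threshold there is no sign of an equal level.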
